A study of Mus musculus with 8 samples.

Results

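The genes described here encode 45 components of the machinery that marks and remodels chromatin: Polycomb complexes, enzymes that write and erase histone H3 methylation at lysines 27 and 4, DNA methyltransferases and TET enzymes, histone acetylation enzymes, SWI/SNF and CHD remodelers, further histone methyltransferases, and proteins that fold the genome. They were chosen by symbol, and the 45 rows were taken from a table of 46517 genes. All 45 symbols were found, and all 45 genes passed the filter on low values, which asked for at least 1 TPM in at least 2 libraries. TPM is transcript abundance per transcript length, brought to 1 common sum across libraries. The question asked of them is whether the expression of this machinery itself differs when the transcription factors NFIB and NFIX are lost.

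RNA was sequenced from hair follicle stem cells, the bulge cells that renew the hair, isolated from the back skin of postnatal day 70 male mice as alpha 6 integrin-positive, CD34-positive, Sca-1-negative and DAPI-negative. Each of 4 genotypes had 2 libraries, each from its own animal. The double knockout (NFIB/X-dKO, animals 33 and 36) carried Sox9-CreER with both Nfib alleles floxed (NFIBfl/fl) and both Nfix alleles floxed (NFIXfl/fl). The NFIB knockout (NFIB-cKO, animals 81 and 85) carried Sox9-CreER with NFIBfl/fl. The NFIX knockout (NFIX-cKO, animals 32 and 88) carried Sox9-CreER with NFIXfl/fl and a single floxed Nfib allele (NFIBfl/+). Wild-type animals (WT, animals 34 and 82) carried NFIBfl/fl and NFIXfl/fl without Cre. All 4 genotypes carried the R26-YFP reporter (R26-YFPfl/fl); knockout cells were additionally sorted for YFP, and WT cells were not. Cre, the YFP gate and gene loss therefore cannot be told apart in any comparison with WT. Deletion was limited to cells in which the Sox9 promoter drives Cre.

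Polycomb repressive complex 2 (PRC2) methylates histone H3 at lysine 27, and Polycomb repressive complex 1 (PRC1) ubiquitinates histone H2A and compacts chromatin. DNA methyltransferases place methyl groups on cytosine, and TET enzymes oxidise them. Remodelers of the SWI/SNF and CHD families use ATP to move or evict nucleosomes. NFI proteins are DNA-binding factors that recognise a palindrome of TTGGC, any 5 bases and GCCAA, and the series title links them to stem cell chromatin.

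Total Nfib RNA was not lower but higher in the NFIB-deleted cells, with a mean of 323 TPM against 197 TPM in the others. Nfib had 377 and 389 TPM in NFIB/X-dKO, 293 and 233 TPM in NFIB-cKO, 200 and 148 TPM in NFIX-cKO, and 230 and 209 TPM in WT. Nfix had 125 and 148 TPM in NFIB/X-dKO, 154 and 147 TPM in NFIB-cKO, 138 and 123 TPM in NFIX-cKO, and 158 and 157 TPM in WT. The labels do not name the deleted exons, so a whole-gene value does not check the deletion. None of 8 hair follicle stem cell markers was below 1 TPM in every library, and their summed level was 8976 to 15052 TPM in the NFIB-deleted libraries and 13704 to 16287 TPM in the others. In every library, 3 of 4 endothelial, 3 of 4 muscle, 5 of 8 immune and 4 of 6 fibroblast markers were below 1 TPM. Suprabasal epidermis was not near absence: its 6 markers summed to 886 to 3227 TPM, with 1 of 6 below 1 TPM in every library. The 7 melanocyte markers summed to 64.9 to 113 TPM, with 0 below 1 TPM in every library, and most of this sum was Mitf (45.3 to 79.6 TPM). Dct, Tyrp1 and Pmel had 1.6 to 15.8 TPM, and Tyr, Kit and Mlana 0.15 to 1.64 TPM. In bulk RNA, fewer cells of a type and less RNA per cell cannot be told apart. The 5 libraries with count tables held 57173266 to 66854625 expected counts; for both WT libraries and NFIB-cKO 81 the depth was unknown.

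Animal numbers fell into the 30s (32, 33, 34 and 36) and the 80s (81, 82, 85 and 88). WT and NFIX-cKO held 1 animal of each number series, the NFIB/X-dKO animals both had 30s numbers, and the NFIB-cKO animals both had 80s numbers. The comparison of all 4 NFIB-deleted libraries (NFIB/X-dKO and NFIB-cKO) with all 4 NFIB-retaining libraries (NFIX-cKO and WT) therefore held 2 animals of each series on each side. NFIX-cKO carried a single floxed Nfib allele in this comparison, so NFIB-retaining means that at least 1 Nfib allele was not floxed or that no Cre was present.

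The chromatin genes were well expressed and close together across genotypes. Their median level over the 8 libraries had a median of 22.8 TPM, against 12.6 TPM for all 15434 genes tested, and 39 of 45 were at 10 TPM or more. The SWI/SNF ATPase gene Smarca2 was the most abundant, with a median of 181 TPM. The histone deacetylase gene Hdac1 followed at 104 TPM and the CHD remodeler gene Chd3 at 77.3 TPM. The 4 genes under 5 TPM were Tet1 (1.37 TPM), Dnmt3b (2.23 TPM), the genome organiser Satb1 (2.40 TPM) and Chd7 (4.55 TPM).

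**Figure D1:**
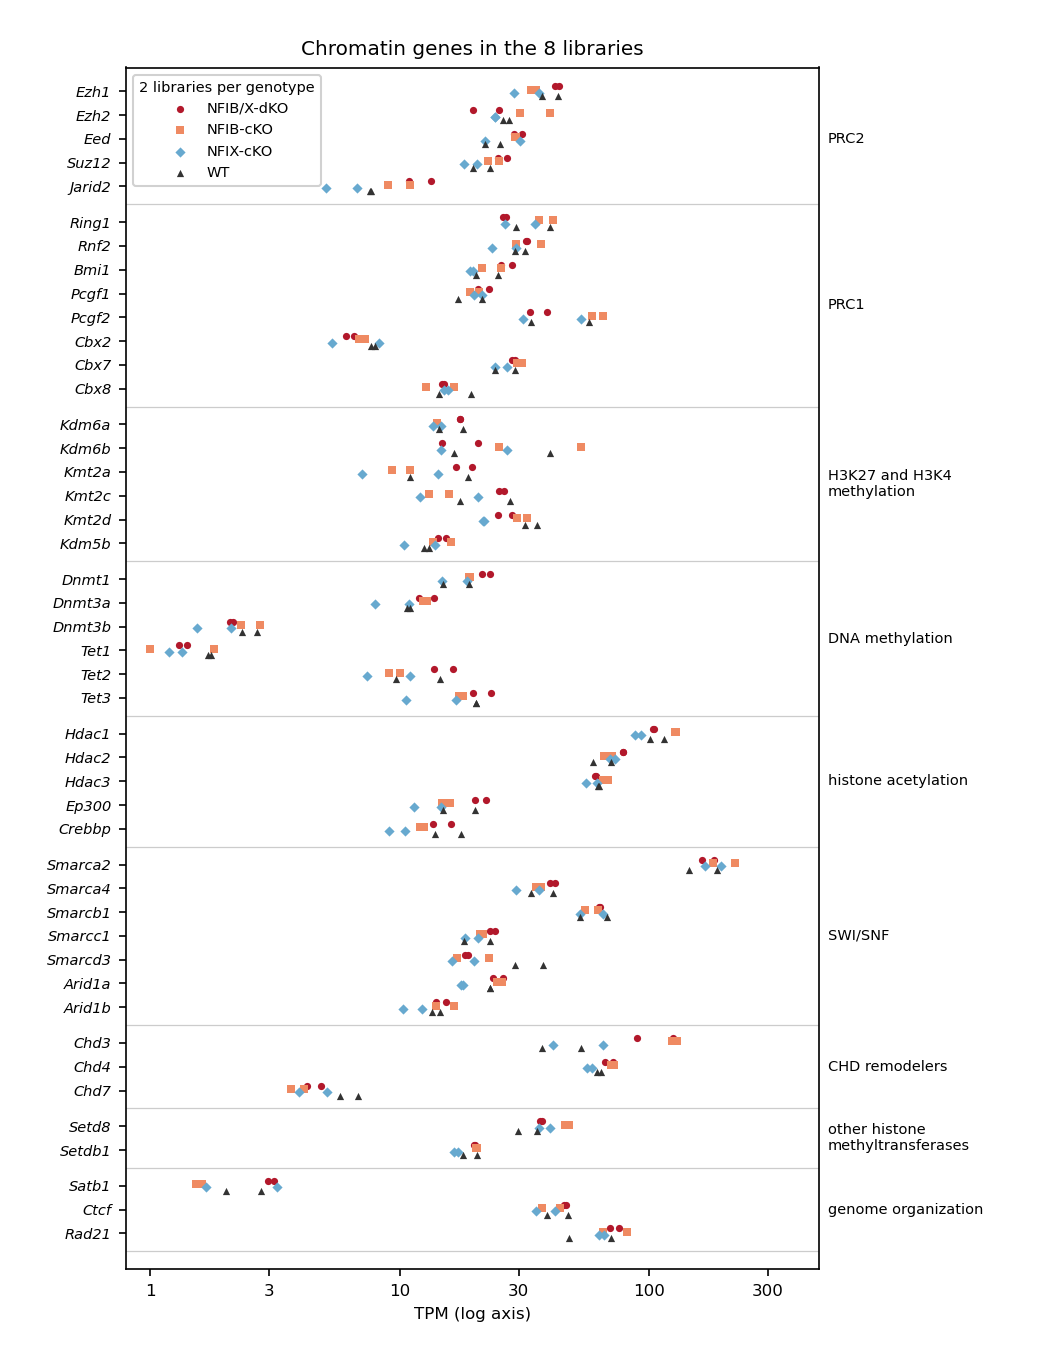
TPM (log axis) of the 45 chromatin genes in each of the 8 libraries, grouped by role, with NFIB/X-dKO, NFIB-cKO, NFIX-cKO and WT as red, orange, blue and black symbols. Most genes hold the 4 genotypes within a narrow band, while Chd3 spans 37.2 to 129 TPM and Kdm6b 14.6 to 53.2 TPM.

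Few of these transcripts differed past the test when NFI factors were lost. In limma fitted to log2(TPM + 1) with Benjamini-Hochberg adjustment over all 15434 genes, 1 of the 45 chromatin genes was called at an adjusted p under 0.05 in the NFIB-deleted against NFIB-retaining comparison, and it was Chd3, higher in the NFIB-deleted cells. Of all genes, 2.48% were called there, 1.48% as higher, so the share among the chromatin genes was close to the background. At an unadjusted p under 0.05 there were 6. In the other contrasts 0 of 45 chromatin genes were called. The background was 2.88% for NFIB/X-dKO versus WT, 0.719% for NFIB-cKO versus WT, 0.149% for NFIX-cKO versus WT, 0.227% for NFIB/X-dKO versus NFIB-cKO and 0.784% for NFIB/X-dKO versus NFIX-cKO. At an unadjusted p under 0.05 the same limma fits held 4, 4, 5, 8 and 10 of the 45 genes in that order. The contrasts with WT share the WT libraries, and those with NFIB/X-dKO share its libraries.

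The estimates leave room for moderate changes in single genes. The 95% interval of the NFIB-deleted against NFIB-retaining difference lay within a 2-fold change of TPM + 1 for 43 of 45 genes. Chd3 and the H3K27 demethylase gene Kdm6b were the exceptions. It lay within a 1.5-fold change of TPM + 1 for 33. Against WT, it lay within a 2-fold change of TPM + 1 for 39 genes in NFIB/X-dKO, 37 in NFIB-cKO and 39 in NFIX-cKO. For weakly expressed genes, such as Tet1 and Dnmt3b, these limits allow a larger change in TPM itself. The median width on either side of the estimate was 0.30 on the log2 scale for the 4 against 4 comparison and 0.42 for the comparisons of 2 against 2.

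The medians of the 45 genes are set beside those of all genes, since scaling moved both. The median log2(TPM + 1) difference of the 45 genes was 0.16 for NFIB-deleted against NFIB-retaining libraries, beside 0.10 for all genes tested, and 38 of 45 were above 0. Dividing the TPM by median-of-ratios factors moved the all-gene median by -0.10, and 28 of 45 chromatin genes were then above 0, with a median of 0.04. For NFIB/X-dKO versus WT the median was 0.11, beside 0.16 for all genes, and with the scaling, which moved all genes by -0.15, it was -0.06. For NFIB-cKO versus WT it was 0.08, beside 0.005 for all genes. For NFIX-cKO versus WT it was -0.18, beside -0.05 for all genes, and 38 of the 45 were below 0 (35 with the scaling).

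**Figure D2:**
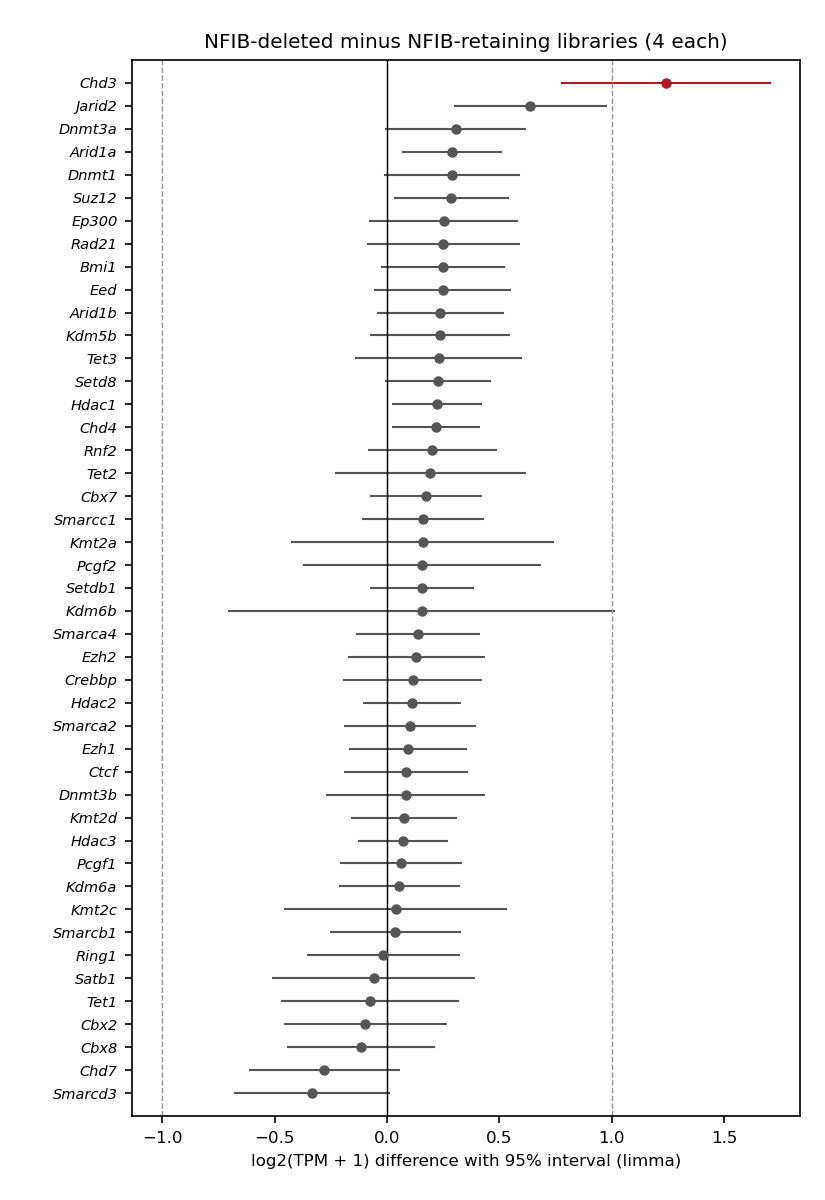
Difference in log2(TPM + 1) between the 4 NFIB-deleted and the 4 NFIB-retaining libraries for the 45 chromatin genes (points) with 95% intervals from limma (bars). Dashed lines mark a 2-fold change of TPM + 1, and red marks the gene past the test. Chd3 stands at 1.24 and Jarid2 at 0.64, and the other 43 lie between -0.33 and 0.31.

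PRC2 genes were expressed in every library. Ezh1 and Ezh2 encode its alternative methyltransferases, Eed and Suz12 its core partners, and Jarid2 an accessory subunit that helps bring the complex to its targets. Jarid2 (chr13:44729474-44921643, plus strand, mm10) had 13.4 and 10.9 TPM in NFIB/X-dKO, 8.99 and 11.0 TPM in NFIB-cKO, 6.75 and 5.08 TPM in NFIX-cKO, and 7.59 and 7.66 TPM in WT. All 4 NFIB-deleted libraries were above all 4 NFIB-retaining libraries. The mean was 11.1 ± 1.79 TPM in NFIB-deleted and 6.77 ± 1.2 TPM in NFIB-retaining cells (SD, n = 4 each), and the log2 difference of 0.64 ± 0.14 (SE) missed the limma threshold (adjusted p = 0.0749). With the animal-number series as a covariate, where 7.87% of all genes and 2 of the 45 (Chd3 and Jarid2) were called, its adjusted p was 0.0338. Within the series Jarid2 missed the threshold, with the same estimate by design and a spread that comes only from the NFIB/X-dKO and NFIB-cKO pairs. For NFIB/X-dKO versus NFIX-cKO the edgeR quasi-likelihood test on counts gave a log2 fold change of 0.70 ± 0.12 (SE, adjusted p = 0.137), and DESeq2 gave 0.69 (adjusted p = 0.00798).

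The promoter of Jarid2 is shown because Jarid2 had, after Chd3, the smallest p among these genes in the 4 against 4 comparison. It is the window from 250 bases before to 50 bases after the first listed start (RefSeq, GRCm38.p6, chr13:44730524-44730823, plus strand). Capitals mark TTGGC or its reverse complement GCCAA, the arm that makes up the NFI palindrome.
Jarid2: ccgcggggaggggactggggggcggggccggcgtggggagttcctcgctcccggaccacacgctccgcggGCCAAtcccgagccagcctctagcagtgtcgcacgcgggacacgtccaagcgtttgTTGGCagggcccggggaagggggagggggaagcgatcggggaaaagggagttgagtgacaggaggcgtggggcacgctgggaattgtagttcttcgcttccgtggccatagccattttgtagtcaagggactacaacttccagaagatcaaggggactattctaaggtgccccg
The window held 2 such arms and no full palindrome, and the window of the second listed start (chr13:44731021-44731320) held 0 arms. Of 32851 promoter windows of 300 bases in the table, 46.7% held at least 1 arm on either strand, as did 54.0% of the 50 windows of the 37 chromatin genes with an entry. The full palindrome (TTGGC, any 5 bases, GCCAA) was found in 12 windows (0.037%), 0 of them of the chromatin genes. A match to these letters is not a measured binding site.

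The PRC2 methyltransferase genes lay apart in the NFIB-deleted genotypes without passing the test. Ezh2 had 19.8 and 24.9 TPM in NFIB/X-dKO, 30.5 and 40.1 TPM in NFIB-cKO, 24.2 and 24.2 TPM in NFIX-cKO, and 25.96 and 27.35 TPM in WT. Ezh1 had 42.0 and 43.7 TPM in NFIB/X-dKO, 35.1 and 33.7 TPM in NFIB-cKO, 36.2 and 28.8 TPM in NFIX-cKO, and 42.96 and 37.19 TPM in WT. The ratio of Ezh1 to Ezh2 was therefore 2.13 and 1.75 in NFIB/X-dKO, 1.15 and 0.84 in NFIB-cKO, 1.496 and 1.190 in NFIX-cKO, and 1.65 and 1.36 in WT. NFIB/X-dKO libraries were the highest and NFIB-cKO libraries the lowest in this ratio. The Ezh2 difference between NFIB/X-dKO and NFIB-cKO of -0.63 ± 0.18 (SE) did not pass limma (adjusted p = 0.256), nor did the Ezh1 difference of 0.31 ± 0.15 (SE, adjusted p = 0.311), and these genotypes cannot be told apart from the number series. The library with the most Ezh2, NFIB-cKO 85, also had the highest summed level of 18 cell cycle genes, 704 TPM against 370 to 482 TPM in the other 7, and the part of cell division in the Ezh2 level was not tested.

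Suz12 had 24.9 and 26.9 TPM in NFIB/X-dKO, 22.7 and 25.1 TPM in NFIB-cKO, 18.1 and 20.4 TPM in NFIX-cKO, and 23.0 and 19.7 TPM in WT. The WT 34 library lay above the lowest NFIB-deleted library, and the difference of 0.29 ± 0.11 (SE) missed the limma threshold (adjusted p = 0.261). Eed ranged from 21.9 to 30.8 TPM over the 8 libraries with overlapping groups.

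Of the 8 PRC1 genes, 0 were called between NFIB-deleted and NFIB-retaining libraries, with differences from -0.12 for Cbx8 to 0.25 for Bmi1. Rnf2 and Ring1 encode the ubiquitin ligases, Bmi1, Pcgf1 and Pcgf2 their ring-finger partners, and Cbx2, Cbx7 and Cbx8 the chromodomain readers of methylated lysine 27. Rnf2 had 32.2 and 32.5 TPM in NFIB/X-dKO, 29.3 and 36.7 TPM in NFIB-cKO, 23.5 and 29.3 TPM in NFIX-cKO, and 29.0 and 31.8 TPM in WT. Bmi1, a regulator of self-renewal in several adult stem cells, had 28.2 and 25.6 TPM in NFIB/X-dKO, 25.4 and 21.5 TPM in NFIB-cKO, 19.7 and 19.2 TPM in NFIX-cKO, and 24.9 and 20.3 TPM in WT. Both NFIX-cKO libraries held the least Bmi1, and the 4 against 4 difference missed the limma threshold (adjusted p = 0.362). Cbx7 had 28.1 and 29.0 TPM in NFIB/X-dKO, 29.6 and 30.9 TPM in NFIB-cKO, 27.01 and 24.17 TPM in NFIX-cKO, and 24.01 and 28.88 TPM in WT.

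Ring1 and Pcgf2 followed the animal-number series rather than the genotypes. Ring1 had 25.9 and 26.6 TPM in NFIB/X-dKO, 41.3 and 36.1 TPM in NFIB-cKO, 26.4 and 34.8 TPM in NFIX-cKO, and 29.4 and 40.3 TPM in WT. Pcgf2 had 33.3 and 38.9 TPM in NFIB/X-dKO, 59.0 and 65.6 TPM in NFIB-cKO, 31.2 and 53.6 TPM in NFIX-cKO, and 33.5 and 57.6 TPM in WT. Within WT and within NFIX-cKO the animal numbered in the 80s had more of both, and every 80s library was above every 30s library for both genes.

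The H3K27 and H3K4 enzymes had 0 of 6 genes called in the 4 against 4 comparison, with differences from 0.04 for Kmt2c to 0.23 for Kdm5b. With the median-of-ratios scaling, 3 of the 6 were below 0. Kdm6a and Kdm6b encode demethylases of lysine 27, Kmt2a, Kmt2c and Kmt2d methyltransferases of lysine 4, and Kdm5b a demethylase of lysine 4. Kdm6a had 17.52 and 17.47 TPM in NFIB/X-dKO, 14.12 and 14.13 TPM in NFIB-cKO, 14.70 and 13.67 TPM in NFIX-cKO, and 18.03 and 14.35 TPM in WT. Kdm5b had 14.3 and 15.3 TPM in NFIB/X-dKO, 13.6 and 16.1 TPM in NFIB-cKO, 13.9 and 10.4 TPM in NFIX-cKO, and 13.1 and 12.6 TPM in WT. Neither gene separated the NFIB-deleted from the NFIB-retaining libraries. Kdm6a was higher in both NFIB/X-dKO libraries than in the NFIB-cKO and NFIX-cKO libraries, while the WT libraries lay on either side of NFIB/X-dKO.

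Kmt2d, the enzyme of enhancer lysine 4 methylation, was lowest in NFIX-cKO in unscaled TPM. It had 24.7 and 28.1 TPM in NFIB/X-dKO, 32.3 and 29.5 TPM in NFIB-cKO, 21.7 and 21.8 TPM in NFIX-cKO, and 31.9 and 35.5 TPM in WT. The NFIX-cKO difference from WT of -0.61 ± 0.14 (SE) had the smallest p of the 45 genes in that comparison and did not pass limma (adjusted p = 0.346). The TPM of Kmt2d rested on different mean transcript lengths, 12853 and 12553 bases in NFIB/X-dKO, 7863 bases in NFIB-cKO 85, and 12102 and 7223 bases in NFIX-cKO 32 and 88. NFIX-cKO 32 and 88 thus had equal TPM with 10328 and 6921 expected counts. Only Kmt2d and Tet1 among the 45 genes differed in length by more than 1.25-fold between NFIX-cKO 32 and 88, which is 4.44%, against 2.73% of all genes tested.

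Kdm6b was the most variable of the group. It had 14.74 and 20.55 TPM in NFIB/X-dKO, 25.01 and 53.16 TPM in NFIB-cKO, 14.59 and 26.83 TPM in NFIX-cKO, and 16.52 and 40.06 TPM in WT. Libraries of the 80s were above those of the 30s, and the interval of the 4 against 4 difference ran from -0.70 to 1.01 on the log2 scale.

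The genes that place and remove DNA methylation were not called, with differences from -0.08 for Tet1 to 0.31 for Dnmt3a. Dnmt1, the maintenance methyltransferase, had 21.5 and 23.1 TPM in NFIB/X-dKO, 19.09 and 18.95 TPM in NFIB-cKO, 18.60 and 14.73 TPM in NFIX-cKO, and 18.89 and 14.90 TPM in WT. Dnmt3a, a de novo methyltransferase, had 11.96 and 13.75 TPM in NFIB/X-dKO, 12.38 and 12.82 TPM in NFIB-cKO, 10.91 and 8.00 TPM in NFIX-cKO, and 10.75 and 11.04 TPM in WT. In both genes the lowest NFIB-deleted library was above the highest NFIB-retaining library, by a small margin, in unscaled TPM. For Dnmt3a the groups overlapped after the median-of-ratios scaling. The log2 differences of 0.29 ± 0.13 for Dnmt1 and 0.31 ± 0.13 for Dnmt3a (SE) had adjusted p values of 0.339 and 0.329 in limma. Tet3, which oxidises methylcytosine, had 19.62 and 23.33 TPM in NFIB/X-dKO, 17.96 and 17.36 TPM in NFIB-cKO, 16.81 and 10.58 TPM in NFIX-cKO, and 20.18 and 20.16 TPM in WT. NFIX-cKO 88 held the least Tet3, and the NFIX-cKO libraries were below the rest. Dnmt3b stayed between 1.54 and 2.76 TPM and Tet1 between 1.0 and 1.8 TPM over the 8 libraries.

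Histone acetylation genes had differences from 0.07 for Hdac3 to 0.25 for Ep300, with 0 of 5 called and 2 of 5 below 0 under the scaling. The deacetylase gene Hdac1 had 105 and 104 TPM in NFIB/X-dKO, 127 and 128 TPM in NFIB-cKO, 93.0 and 87.8 TPM in NFIX-cKO, and 115 and 101 TPM in WT. In unscaled TPM the NFIB-cKO libraries were the highest and the NFIX-cKO libraries the lowest. After the median-of-ratios scaling, NFIX-cKO overlapped NFIB/X-dKO. The 4 against 4 difference of 0.22 ± 0.08 (SE) missed the limma threshold (adjusted p = 0.262). Its paralogue Hdac2 had 78.9 and 78.5 TPM in NFIB/X-dKO, 71.2 and 65.7 TPM in NFIB-cKO, 69.9 and 73.1 TPM in NFIX-cKO, and 70.1 and 59.5 TPM in WT. The acetyltransferase gene Ep300 had 19.99 and 22.23 TPM in NFIB/X-dKO, 14.84 and 15.99 TPM in NFIB-cKO, 14.70 and 11.39 TPM in NFIX-cKO, and 20.02 and 14.98 TPM in WT. Ep300 was highest in NFIB/X-dKO 36 and lowest in NFIX-cKO 88. Its relative Crebbp ranged from 9.05 to 17.7 TPM, lowest in NFIX-cKO, whose difference from WT of -0.63 ± 0.18 (SE) did not pass limma (adjusted p = 0.541).

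SWI/SNF genes spread from -0.33 for Smarcd3 to 0.29 for Arid1a, with 0 of 7 called. Arid1a, a targeting subunit of the complex, had 23.71 and 25.99 TPM in NFIB/X-dKO, 24.52 and 25.64 TPM in NFIB-cKO, 17.64 and 18.03 TPM in NFIX-cKO, and 22.95 and 22.95 TPM in WT. NFIX-cKO stood apart at the low end, while the NFIB-deleted libraries were just above WT in unscaled TPM and overlapped it after the median-of-ratios scaling. Its 4 against 4 difference of 0.29 ± 0.09 (SE) had an adjusted p of 0.189 in limma. Smarca4, a catalytic ATPase, had 40.2 and 42.0 TPM in NFIB/X-dKO, 35.1 and 36.9 TPM in NFIB-cKO, 36.3 and 29.3 TPM in NFIX-cKO, and 41.3 and 33.6 TPM in WT, and its groups overlapped.

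Smarcd3, a tissue-restricted accessory subunit, lay below WT in all 3 knockout genotypes without passing the test. It had 18.88 and 18.31 TPM in NFIB/X-dKO, 22.91 and 17.01 TPM in NFIB-cKO, 16.22 and 19.94 TPM in NFIX-cKO, and 28.97 and 37.58 TPM in WT. All 6 knockout libraries lay below both WT libraries. The differences from WT were -0.80 ± 0.21 in NFIB/X-dKO, -0.71 ± 0.21 in NFIB-cKO and -0.84 ± 0.21 in NFIX-cKO (SE), with adjusted p values in limma of 0.109, 0.198 and 0.394. The 3 comparisons share the WT libraries, which alone lacked Cre and the YFP gate. Smarcd3 is uncertain as a gene-level value, since 48.2% of its exon bases overlap other genes (Chpf2 and Mir671) and no source used here gives the strand setting of the counting.

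The gene past the test was Chd3, which encodes an ATPase of the nucleosome remodeling and deacetylase (NuRD) complex and takes the same place in it as Chd4. Chd3 (ENSMUSG00000018474, chr11:69343273-69369406, minus strand, mm10) had 89.1 and 125 TPM in NFIB/X-dKO, 129 and 123 TPM in NFIB-cKO, 65.6 and 41.3 TPM in NFIX-cKO, and 37.2 and 53.5 TPM in WT. Every NFIB-deleted library was above every NFIB-retaining library, and NFIX-cKO overlapped WT. The means were 117 ± 18.5 TPM in NFIB-deleted and 49.4 ± 12.8 TPM in NFIB-retaining cells (SD, n = 4 each). The log2 difference was 1.24 ± 0.20 (SE, limma adjusted p = 0.0277). Within the animal-number series the estimate is the same by design, since both sides hold equal numbers of animals from each series. The spread of that fit comes only from the NFIB/X-dKO and NFIB-cKO pairs, so it is not separate support.

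Separate comparisons had the same direction for Chd3 without passing the threshold. The difference was 1.22 ± 0.28 for NFIB/X-dKO versus WT (adjusted p = 0.0750), 1.48 ± 0.28 for NFIB-cKO versus WT (adjusted p = 0.0815) and 0.22 ± 0.28 for NFIX-cKO versus WT (adjusted p = 0.958), each with its SE from limma. Both comparisons of NFIB-deleted genotypes with WT passed when 1 NFIX-cKO library was left out of the shared spread: without NFIX-cKO 32 the adjusted p was 0.0432 for NFIB/X-dKO and 0.04999 for NFIB-cKO, and without NFIX-cKO 88 it was 0.0436 and 0.0497. The test of non-additivity, which sets NFIB/X-dKO minus NFIB-cKO against NFIX-cKO minus WT, gave -0.47 ± 0.39 (SE, limma adjusted p = 0.614). Its NFIB-deleted side compares genotypes from different animal-number series, so it also holds any series difference. Its other side holds Cre, the YFP gate and the single floxed Nfib allele besides NFIX loss. It is therefore not a test of NFIB and NFIX loss alone. On counts, Chd3 had 11893 and 17230 expected counts in NFIB/X-dKO and 9018 and 5598 in NFIX-cKO. The log2 fold change was 0.92 ± 0.27 (SE) with an edgeR adjusted p of 0.282 and a DESeq2 adjusted p of 0.0349.

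The Chd3 call was sensitive to single libraries and to the settings. It held in 6 of 14 alternatives, with values from 1.08 to 1.41 and adjusted p values from 0.0191 to 0.117 in limma. Leaving out 1 library gave an adjusted p of 0.0678 or 0.117 when NFIB/X-dKO 33 or 36 was dropped, 0.108 or 0.111 when NFIB-cKO 81 or 85 was dropped, 0.0527 without NFIX-cKO 88 and 0.0662 without WT 34. It was 0.0878 with no filter on low values and 0.0555 (difference 1.13) with the median-of-ratios scaling. Without NFIX-cKO 32 or WT 82 the call held.

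Some marker genes moved with the same 4 against 4 comparison. Of 6 sebaceous markers, 4 were called lower in NFIB-deleted libraries, and their summed level was 336 to 412 TPM in NFIB-deleted and 435 to 618 TPM in NFIB-retaining libraries. Of 2 fibroblast markers tested, 1 was called higher. The 6 markers summed to 55.7 to 86.8 TPM in NFIB-deleted and 24.5 to 42.4 TPM in NFIB-retaining libraries. In the NFIB-deleted libraries most of this sum was Col1a1 (53.32 to 77.31 TPM, against 8.27 to 16.65 TPM in NFIB-retaining libraries). Col1a2 tended the other way, with 2.17 to 9.22 TPM in NFIB-deleted and 8.01 to 33.56 TPM in NFIB-retaining libraries. The fibroblast markers thus did not move together. Of 8 stem cell markers, 2 were called lower. Their part in the Chd3 result was not tested. No annotated exon base of Chd3 overlaps another gene. Of 9 genes tested within 100 kb of Chd3, 0 were called, and their differences lay between -0.32 and 0.25; Kdm6b is one of these neighbours.

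Chd4, the other NuRD ATPase of the list, did not pass the test. It had 66.6 and 71.4 TPM in NFIB/X-dKO, 72.7 and 70.5 TPM in NFIB-cKO, 56.2 and 59.2 TPM in NFIX-cKO, and 62.0 and 64.3 TPM in WT. In unscaled TPM the groups did not overlap, with 70.3 ± 2.64 TPM in NFIB-deleted and 60.4 ± 3.49 TPM in NFIB-retaining cells (SD, n = 4 each). They overlapped after the median-of-ratios scaling. The difference of 0.22 ± 0.08 (SE) missed the limma threshold (adjusted p = 0.261). The ratio of Chd3 to Chd4 was 1.34 and 1.75 in NFIB/X-dKO, 1.78 and 1.75 in NFIB-cKO, 1.17 and 0.70 in NFIX-cKO, and 0.60 and 0.83 in WT. Chd3 was the more abundant of the pair in all 4 NFIB-deleted libraries and in NFIX-cKO 32, and Chd4 in the other 3. Chd7, a CHD remodeler outside NuRD, ranged from 3.68 to 6.80 TPM and was highest in WT.

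**Figure D3:**
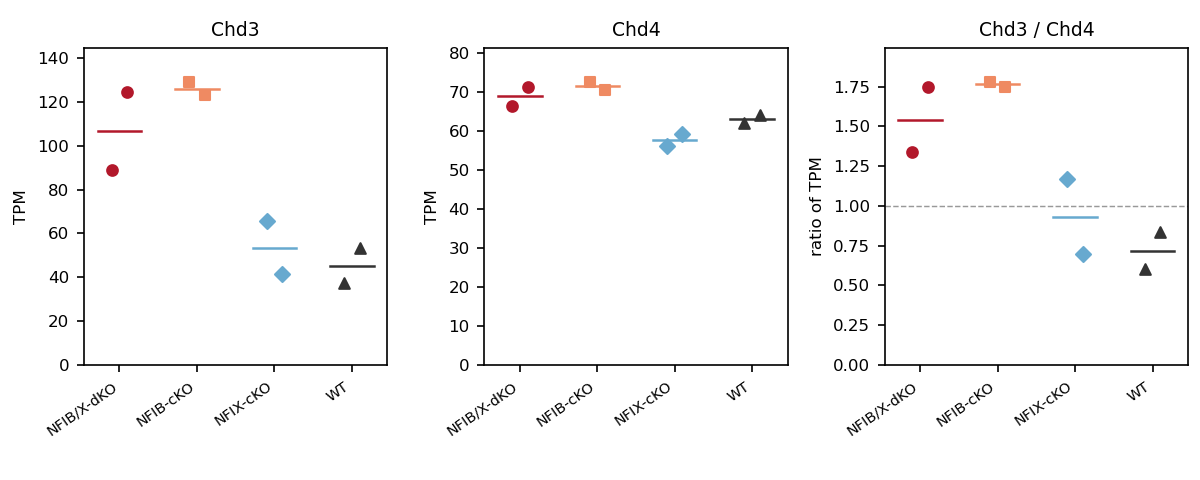
TPM of Chd3 and Chd4 and the ratio of the pair in each library, with genotypes on the horizontal axis and lines at the mean of 2 libraries; the dashed line in the ratio panel marks equal levels. Chd3 lies between 89.1 and 129 TPM in the NFIB-deleted libraries and between 37.2 and 65.6 TPM in the others, while Chd4 stays between 56.2 and 72.7 TPM.

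The remaining histone methyltransferase genes were Setd8, whose enzyme monomethylates lysine 20 of histone H4, and Setdb1, whose enzyme trimethylates lysine 9 of histone H3. Setd8 had 37.2 and 36.4 TPM in NFIB/X-dKO, 45.9 and 47.6 TPM in NFIB-cKO, 36.3 and 40.1 TPM in NFIX-cKO, and 29.8 and 35.6 TPM in WT. In unscaled TPM it was highest in NFIB-cKO, with a difference from WT of 0.51 ± 0.14 (SE) that did not pass limma (adjusted p = 0.174). Setdb1 had 19.88 and 20.05 TPM in NFIB/X-dKO, 20.20 and 20.49 TPM in NFIB-cKO, 17.17 and 16.59 TPM in NFIX-cKO, and 20.42 and 18.01 TPM in WT.

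Among the genome organisation genes, 0 of 3 were called. Ctcf, the insulator protein, had 45.6 and 46.6 TPM in NFIB/X-dKO, 43.9 and 37.2 TPM in NFIB-cKO, 42.1 and 35.2 TPM in NFIX-cKO, and 47.2 and 39.1 TPM in WT. Rad21, a cohesin subunit, had 69.6 and 75.5 TPM in NFIB/X-dKO, 65.6 and 81.9 TPM in NFIB-cKO, 66.0 and 62.8 TPM in NFIX-cKO, and 70.4 and 48.0 TPM in WT. In both genes WT spanned much of the range of the knockouts. Satb1 had 1.53 to 3.21 TPM over the 8 libraries.

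Counted by range alone, 6 of 45 genes (13.3%) had all 4 NFIB-deleted libraries above all 4 NFIB-retaining libraries. They were Jarid2, Dnmt1, Dnmt3a, Arid1a, Chd3 and Chd4. These ranges are of unscaled TPM. After division by the median-of-ratios factors, the ranges of Chd4, Arid1a and Dnmt3a overlapped. The background was 6.84% of all genes tested, and 2.11% of all genes were below in every library, against 0 of the 45. A list of 136 other chromatin genes had 17 genes (12.5%) above and 0 below. The shares of all genes and of this list are also of unscaled TPM and were not recounted with the scaling.

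Levels of several chromatin genes tracked the animal-number series. In a limma fit with the series as a term, 5 of 45 genes were called between animals numbered in the 80s and the 30s, beside 15.8% of all genes tested. Pcgf2 (0.76 ± 0.11, SE, adjusted p = 0.0260) and Ring1 (0.41 ± 0.10, adjusted p = 0.0450) were higher in the 80s. Kmt2a (-0.82 ± 0.14, adjusted p = 0.0318), Kmt2c (-0.68 ± 0.12, adjusted p = 0.0329) and Tet2 (-0.52 ± 0.12, adjusted p = 0.0450) were lower in the 80s. The series also separated by the summed markers of another cell type and by summed mitochondrial RNA. The 6 suprabasal epidermis markers summed to 886 to 1213 TPM in the 80s and 1852 to 3227 TPM in the 30s, and the 13 mitochondrially encoded genes to 53924 to 61118 TPM in the 80s and 44679 to 48525 TPM in the 30s. The mitochondrial genes did not all move alike. mt-Co2 had 3176 to 9148 TPM in the 80s and 205 to 637 TPM in the 30s. mt-Nd3 went the other way, with 1502 to 2032 TPM in the 80s and 2256 to 2717 TPM in the 30s. The part of these markers in the series differences was not tested. What the number series stands for (litter, date or instrument) is not stated in the labels.

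Among all genes tested, long transcripts showed the lower levels in the 80s most. The median over all lengths was already -0.22 in unscaled TPM, and the rank correlation of length with the difference was -0.06. The median difference of all genes was -0.18 for mean transcript lengths of 1 to 2 kb and -0.53 for 8 kb or more, and 49.2% of the genes in the longest class were called lower. Kmt2a, with a mean length of 15.96 kb, had 16.8 and 19.5 TPM in NFIB/X-dKO, 11.0 and 9.28 TPM in NFIB-cKO, 14.2 and 7.04 TPM in NFIX-cKO, and 18.8 and 11.1 TPM in WT. Kmt2c had 25 and 26.3 TPM in NFIB/X-dKO, 15.75 and 13.07 TPM in NFIB-cKO, 20.67 and 12.07 TPM in NFIX-cKO, and 27.80 and 17.49 TPM in WT. Tet2 had 13.78 and 16.32 TPM in NFIB/X-dKO, 10.03 and 9.07 TPM in NFIB-cKO, 11.00 and 7.41 TPM in NFIX-cKO, and 14.48 and 9.69 TPM in WT. In each of these genes the 80s animal of WT and of NFIX-cKO was below the 30s animal of the same genotype. Tet2, with a mean length of 5.16 kb, is not in the longest class. The 7 chromatin genes of at least 8 kb had a median series difference of -0.31, nearer 0 than the -0.53 of all genes of this length. Among them Kmt2d differed by 0.08 and Chd7 by -0.05.

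**Figure D4:**
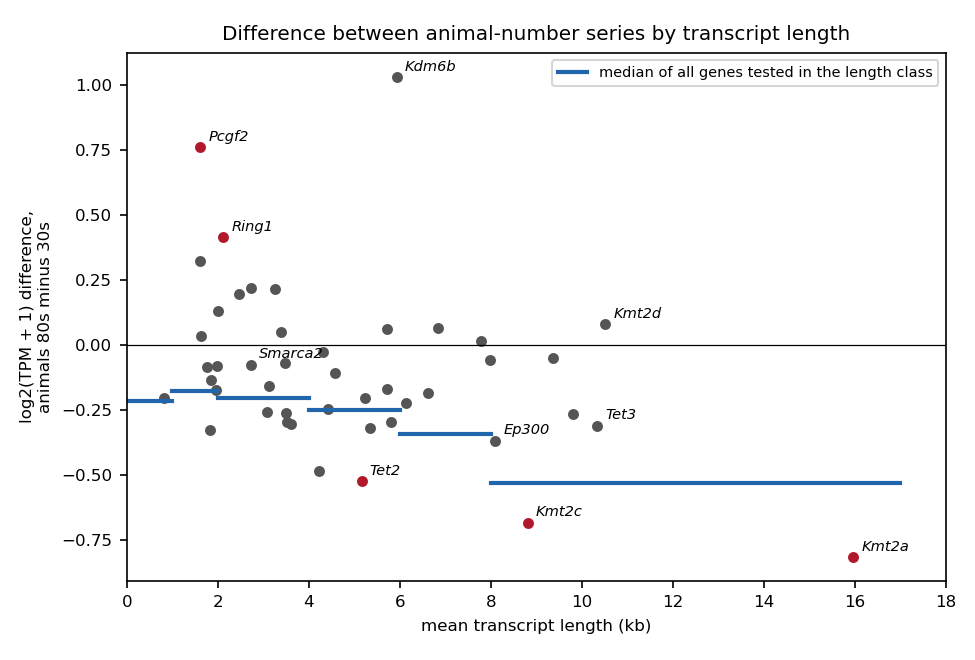
Difference in log2(TPM + 1) between animals numbered in the 80s and the 30s, with genotype in the fit, against mean transcript length (kb) for the 45 chromatin genes (points; red, past the limma threshold), with blue bars at the median of all genes tested in each length class. The bars run from -0.18 at 1 to 2 kb to -0.53 at 8 kb or more; Kmt2a and Kmt2c lie at the low end and Kdm6b, Pcgf2 and Ring1 at the upper end.

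NFIB/X-dKO and NFIB-cKO, the genotypes that differ by loss of NFIX, stood wholly in different number series. With only these groups in the fit, 7 of the 45 genes passed (Kmt2a, Kmt2c, Satb1 and Tet2 higher, and Pcgf2, Ring1 and Setd8 lower in NFIB/X-dKO), beside 16.7% of all genes, against 0 of the 45 with all 8 libraries sharing the spread. These include all 5 genes called between the series, and genotype and series cannot be told apart there. Likewise, leaving out NFIX-cKO 32 moved the edgeR count test of NFIB/X-dKO versus NFIX-cKO to 15 of 45 genes, beside 36.4% of all genes. That left 30s animals on the NFIB/X-dKO side and an 80s animal on the other. Leaving out NFIX-cKO 88 moved it to 2 (Jarid2 and Tet2), beside 9.11% of all genes. With all 4 libraries edgeR called 0 of 45, beside 0.322% of 18349 genes, with 5 at an unadjusted p under 0.05, and DESeq2 called 2 (Chd3 and Jarid2), beside 4.86% of 17281 genes with an adjusted p.

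The non-additive contrast was called for 0 of 45 genes, beside 0.117% of all genes, with 9 at an unadjusted p under 0.05. It sets NFIB/X-dKO against NFIB-cKO, which stood wholly in different number series, while NFIX-cKO and WT were mixed. Without a term for the series, it therefore also holds any series difference. NFIX-cKO against WT further holds Cre, the YFP gate and the single floxed Nfib allele, which NFIB/X-dKO against NFIB-cKO does not. The 9 genes include Kmt2a, Kmt2c and Tet2, which were called between the series, but not Pcgf2 or Ring1. Its interval was within a 2-fold change for 27 of 45 genes.

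The other genes of the same complexes were read beside these 45. Of 136 further Polycomb, methylation, acetylation, remodeling and cohesin genes tested, 3 were higher and 0 lower in NFIB-deleted against NFIB-retaining libraries. That is near the background of all genes, of which 1.48% were called higher and 2.48% in all. The 3 genes were Hmga2, Uhrf1 and Phc1. Hmga2 encodes an architectural protein that bends AT-rich DNA, Uhrf1 the partner that brings DNMT1 to replicated DNA, and Phc1 a subunit of PRC1.

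Hmga2 (chr10:120361275-120476469, minus strand) had 18.6 and 17.3 TPM in NFIB/X-dKO, 12.8 and 10.6 TPM in NFIB-cKO, 5.67 and 5.90 TPM in NFIX-cKO, and 3.36 and 4.52 TPM in WT. The 4 genotypes did not overlap. The difference was 1.42 ± 0.13 (SE, limma adjusted p = 0.00495) for NFIB-deleted against NFIB-retaining, 1.95 ± 0.19 for NFIB/X-dKO versus WT (adjusted p = 0.00513), 1.37 ± 0.19 for NFIB-cKO versus WT (adjusted p = 0.0325) and 1.48 ± 0.19 for NFIB/X-dKO versus NFIX-cKO (adjusted p = 0.0320). The 4 against 4 call held in all 14 alternatives tried, with values from 1.32 to 1.59. The other calls were less stable. NFIB/X-dKO versus WT held in 13 of 15 and was lost without NFIB/X-dKO 33 (adjusted p = 0.0693) or 36 (0.0631). NFIB-cKO versus WT held in 6 of 15, with adjusted p values of up to 0.178, and was lost with no filter (0.0935), with the scaling (0.0594) and without WT 34, NFIB-cKO 81 or 85, or NFIB/X-dKO 33 or 36. NFIB/X-dKO versus NFIX-cKO held in 5 of 15, with adjusted p values of up to 0.292, and was lost with no filter (0.0620), with the scaling (0.0645) and without any 1 library of NFIB/X-dKO, NFIB-cKO or NFIX-cKO. On counts it had an edgeR adjusted p of 0.0720 and a DESeq2 adjusted p of 9.28e-08.

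Uhrf1 (chr17:56303321-56323486, plus strand) had 18.7 and 20.5 TPM in NFIB/X-dKO, 18.8 and 21.6 TPM in NFIB-cKO, 16.1 and 13.6 TPM in NFIX-cKO, and 8.74 and 9.85 TPM in WT. All 6 knockout libraries were above both WT libraries. The difference was 0.71 ± 0.12 (SE, limma adjusted p = 0.0302) in the 4 against 4 comparison and 1.0 ± 0.16 for NFIB/X-dKO versus WT (adjusted p = 0.0277). The 4 against 4 call held in 6 of 14 alternatives, in 2 of the 8 that left out a library. The NFIB/X-dKO versus WT call also held in 6 of 15 alternatives, with adjusted p values of up to 0.278. Dnmt1, its partner, differed by 0.29 in the 4 against 4 comparison and was not called. The WT libraries alone lacked Cre and the YFP gate. They also had the lowest sums of the 18 cell cycle genes, 370 and 404 TPM, against 421 to 704 TPM in the knockouts. Not every gene followed the sum, as Pcna had 237 and 246 TPM in WT and 168 to 263 TPM in the knockouts. The part of cell division in the Uhrf1 level was not tested.

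Phc1 (chr6:122317731-122340561, minus strand) had 3.04 and 3.03 TPM in NFIB/X-dKO, 2.01 and 3.02 TPM in NFIB-cKO, 0.90 and 0.87 TPM in NFIX-cKO, and 0.77 and 1.14 TPM in WT. The NFIB-deleted libraries were all above the others at a low level. The difference of 0.97 ± 0.16 (SE, limma adjusted p = 0.0336) held in 3 of 13 alternatives and in 0 of the 8 that left out a library.

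Promoter windows at the first listed start are given for Hmga2 and Uhrf1 because each was called in more than 1 comparison, which Jarid2 was not. They are Hmga2 at chr10:120476420-120476719 on the minus strand and Uhrf1 at chr17:56303087-56303386 on the plus strand (RefSeq, GRCm38.p6), with TTGGC or GCCAA in capitals.
Hmga2: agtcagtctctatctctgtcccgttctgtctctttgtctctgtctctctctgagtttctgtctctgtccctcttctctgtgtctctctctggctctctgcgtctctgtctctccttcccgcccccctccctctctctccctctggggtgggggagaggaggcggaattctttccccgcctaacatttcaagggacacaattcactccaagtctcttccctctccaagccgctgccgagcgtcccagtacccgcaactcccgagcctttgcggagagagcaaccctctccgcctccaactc
Uhrf1: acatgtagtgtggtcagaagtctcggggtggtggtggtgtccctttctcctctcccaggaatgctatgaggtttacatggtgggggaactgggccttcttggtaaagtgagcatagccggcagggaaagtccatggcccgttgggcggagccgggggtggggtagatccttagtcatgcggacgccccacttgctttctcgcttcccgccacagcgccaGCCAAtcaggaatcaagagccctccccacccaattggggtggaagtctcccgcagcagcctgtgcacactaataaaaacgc
The Hmga2 window held 0 arms, and the Uhrf1 window held 1, as GCCAA. The second listed start of Uhrf1 (chr17:56304063-56304362) held 2 arms, and the only start listed for Phc1 held 0.

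**Figure D5:**
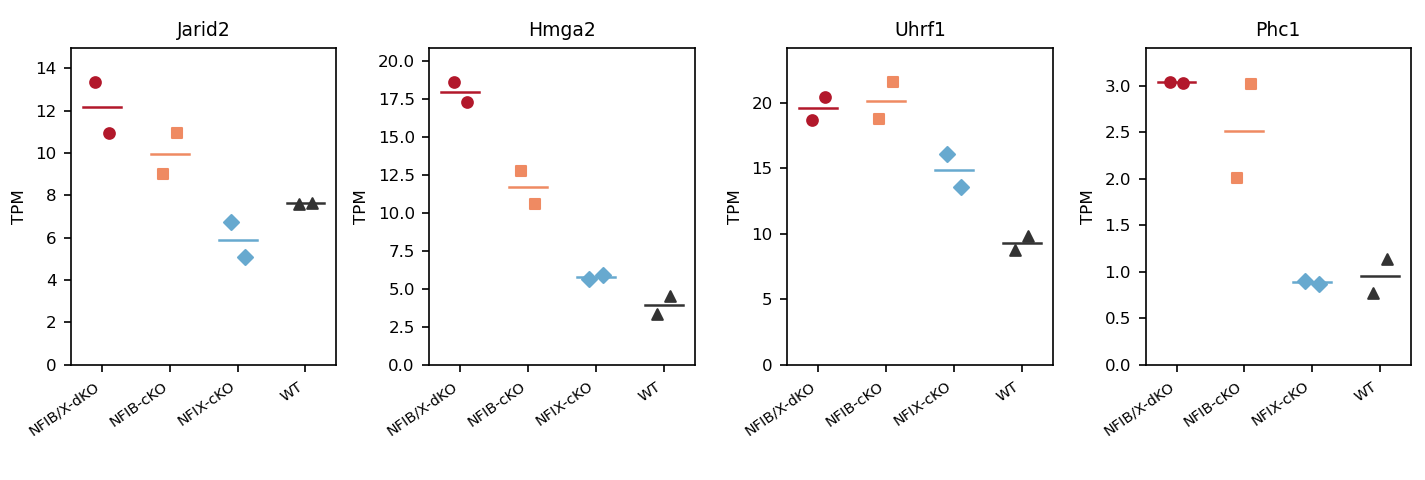
TPM of Jarid2, Hmga2, Uhrf1 and Phc1 in each library, with genotypes on the horizontal axis and lines at the mean of 2 libraries. In all 4 genes each NFIB-deleted library lies above each NFIB-retaining one, while Uhrf1 in NFIX-cKO, at 16.1 and 13.6 TPM, also lies above WT, at 8.74 and 9.85 TPM.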

How the data were processed

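RNA was sequenced from 8 libraries, grouped by title, and every library carried its own animal number, so p-values measure the spread between animals. In fits without a series term, that spread includes the difference between the number series in WT and NFIX-cKO, but not in the other genotypes. Per the labels' protocols, the RNA came from TRIzol LS lysates (Direct-zol kit) and TruSeq mRNA libraries were read from both ends on HiSeq machines. The authors deposited TPM for all 8 libraries, and expected counts and transcript lengths (in bases) for 5, from RSEM 1.2.30 with Bowtie2 2.2.9 against mm10, per the submitters' processing notes. TPM in the 2 kinds of table were equal (largest difference 0). For annotation release and strand setting, the sources used here give nothing. The table held 46609 features, 92 of them spike-ins with 0% of the TPM, and 0 columns were left unmapped.

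Here log2(TPM + 1) of genes with at least 1 TPM in at least 2 libraries was fitted with limma 3.58.1 (R 4.3.3, variance trend, 4 residual and 3.10 prior degrees of freedom), with all 8 libraries in 1 fit and Benjamini-Hochberg adjustment over 15434 genes. Differences on this scale understate changes of weakly expressed genes. NFIB/X-dKO and NFIX-cKO, the groups with expected counts for both libraries, were also compared with the edgeR 4.0.16 quasi-likelihood test (TMM, filterByExpr) on expected counts rounded to whole numbers. DESeq2 1.42.0, other factors, filters, a pseudocount of 0.1, the animal-number series and leaving out each library were alternatives. The steps were tested on simulated data.

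The 45 genes, the list of other chromatin genes (139 of 142 symbols found, 136 tested) and the marker lists were chosen with earlier results of these data known. Values in every library were given for genes past the test, for the 2 with the smallest p in the 4 against 4 comparison and the 1 with the smallest p for NFIB/X-dKO versus WT in each role, and for a set of catalytic genes; others were named after their values were seen. Coordinates are from GENCODE M21 (mm10). Chd3 has no promoter shown.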

Additional observations from a re-analysis of the deposited data

How the results depend on the processing

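Of 141 counts and medians recomputed under settings other than leaving out a library, 110 kept their value within the limits set (1.5 times for counts, 1 SD between replicates for medians), and of 4884 values of single chromatin genes 0 reversed a call, 8 lost one and 31 gained one. The cause of the changes below was not tested. With no filter on low values, which tests more genes, the other chromatin genes called numbered 1 for NFIB/X-dKO versus WT, 0 for NFIB-cKO versus WT, 0 for NFIB/X-dKO versus NFIX-cKO and 1 for NFIB-deleted against NFIB-retaining, where the 45 genes had 0; with a filter of 5 TPM NFIB-cKO versus WT had 2. With median-of-ratios scaling, which centres all genes near 0, the medians of the 45 genes were -0.062 for NFIB/X-dKO versus WT, -0.13 for NFIB/X-dKO versus NFIB-cKO, 0.038 for NFIB/X-dKO versus NFIX-cKO, 0.041 for NFIB-deleted against NFIB-retaining and 0.012 for the non-additive contrast. Scaling left 0 other chromatin genes for NFIB-cKO versus WT and for NFIB/X-dKO versus NFIX-cKO, and 1 other gene and 0 of the 45 in the 4 against 4 comparison; calls over all genes there numbered 148 higher and 178 lower, against 229 and 153 unscaled. With only the compared groups, the other genes numbered 1 for NFIB/X-dKO versus WT, 0 for NFIB-cKO versus WT, 0 for NFIB/X-dKO versus NFIX-cKO and 27 for NFIB/X-dKO versus NFIB-cKO, where the 45 genes had 7. With the number series as a covariate, NFIB/X-dKO versus WT had a median of 0.019 and 4 other genes, NFIB-cKO versus WT had 2 other genes, the 4 against 4 comparison had 2 of the 45 and 11 other genes, and the non-additive median was 0.088. Within the series the other genes numbered 0 for NFIB-cKO versus WT, 0 for NFIB/X-dKO versus NFIX-cKO and 8 in the 4 against 4 comparison, and the non-additive median, an alternative chosen after seeing the data, was 0.088. DESeq2 called 2 of the 45 where edgeR called 0.

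Leaving out each library in turn, which assumes that a lone library varies like the other groups, gave ranges. Of the 45 genes, 0 to 1 were called for NFIB/X-dKO versus WT, for NFIB-cKO versus WT and in the 4 against 4 comparison, and 0 to 15 by counts. Other genes called ranged from 0 to 3 for NFIB/X-dKO versus WT, 0 to 2 for NFIB-cKO versus WT, 0 to 1 for NFIB/X-dKO versus NFIX-cKO and 1 to 2 in the 4 against 4 comparison. Medians ranged from 0.029 to 0.199 for NFIB/X-dKO versus WT, -0.0051 to 0.094 for NFIB-cKO versus WT, and 0.13 to 0.29 for the non-additive contrast. No paired analysis was possible because every library has its own animal number and the groups share none. The intervals of comparisons of 2 against 2 libraries were wide, and the depth of 3 libraries was unknown.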

Other observations

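Further ratios between paralogues are given as values, picked from a larger set after the values were seen. The TPM ratio of Hdac1 to Hdac2 was 1.33 and 1.32 in NFIB/X-dKO, 1.78 and 1.95 in NFIB-cKO, 1.33 and 1.201 in NFIX-cKO, and 1.65 and 1.70 in WT. All 4 libraries of the genotypes without NFIX were below all 4 of the genotypes with it. The difference was not tested, and the share of gene pairs that separate in this way was not counted. The ratio of Pcgf2 to Bmi1 was 1.18 and 1.52 in NFIB/X-dKO, 2.33 and 3.06 in NFIB-cKO, 1.58 and 2.79 in NFIX-cKO, and 1.35 and 2.84 in WT. This ratio followed the animal-number series, with every library of the 80s above every library of the 30s. The ratio of Smarca2 to Smarca4 ran from 4.04 to 6.66 over the 8 libraries, with the lowest value in NFIB/X-dKO 33 and the highest in NFIX-cKO 88.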
